A study of Mus musculus with 16 samples.

Results

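Alkali loading of the normal kidney was examined by setting 4 wild-type mice that drank sodium bicarbonate against 4 wild-type mice that drank water, 8 of the 16 libraries of the series, across all 12943 genes that passed a filter on low values. The libraries were chosen by their genotype and treatment labels alone. All 16 mice were female C57BL/6 animals of 2 to 3 months, and each gave 1 library from a kidney slice of 3 mm cut through the middle of the organ, so cortex and medulla were sampled together. Bicarbonate was given at 250 mM and pH 8.5 in the drinking water for 7 days, and every mouse fasted for 12 h with its own drink at hand. The remaining 8 libraries came from IRR(-/-) mice, which carry a knockout of Insrr, 4 on water and 4 on bicarbonate. They served to estimate the spread between animals and to show the same contrast in other animals.

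The proximal tubule reclaims most filtered bicarbonate and makes ammonium from glutamine. Type A intercalated cells of the collecting duct secrete acid, and type B cells secrete bicarbonate in exchange for chloride through pendrin. An alkali load is known to lower acid secretion and ammonium production, to raise bicarbonate secretion and to raise the excretion of citrate, a filtered base that the proximal tubule otherwise takes back up through dicarboxylate transporters. Insrr encodes IRR, a tyrosine kinase of the insulin receptor family, which is activated by alkaline fluid at the cell surface.

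The unit is RPKM, a read density scaled to transcript length and library size, and all log2 changes are bicarbonate minus water on log2(RPKM + 0.1), which understates the change of low genes. The labels describe the libraries of a group as separate animals. The median RPKM of the 8 wild-type libraries lay between 8.66 and 8.92, and the 13 mitochondrially encoded genes took 69.6 to 74.2% of the summed RPKM. The number of reads behind each library is unknown. Insrr stood between 4.20 and 6.73 RPKM in the 8 wild-type libraries and between 3.31 and 4.11 RPKM in the 8 labelled as knockout. Proximal tubule markers were abundant in every wild-type library, with summed levels of 6112 to 7824 RPKM over 18 genes. Wild-type bicarbonate replicate 3 stood apart from the other 7. It lay at 54.9 on the first principal component of the wild-type libraries, which held 20.8% of the variance, against -25.4 to 6.16 for the others. It had the highest value of the 8 for 2386 genes and the lowest for 2458.

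After bicarbonate the transporter genes Slc13a3, Slc22a8 and Slc6a20b and the surface enzyme gene Enpp6 fell, and Acp2, which encodes a lysosomal acid phosphatase, had the largest rise of the genes past the threshold. At an adjusted p under 0.05 (limma, Benjamini-Hochberg over all genes, two-sided), 18 of 12943 genes passed (0.139%), of which 5 were higher and 13 lower. Without adjustment 1549 genes had a p under 0.05 (12.0%), 718 higher (5.55%) and 831 lower (6.42%). The 2 groups did not overlap for 758 genes (5.86%), 329 higher (2.54%) and 429 lower (3.31%). The median log2 change of all genes was -0.01 and 48.6% of changes were positive. The count of 18 became 4, 6, 9 and 12 without wild-type water replicates 1 to 4 and 5, 2, 5 and 82 without wild-type bicarbonate replicates 1 to 4. Acp2 kept its call in all 8 of these fits, Slc13a3 and Ly6a each lost theirs in 2, and the other named genes lost theirs in 5 to 7. With only the 8 wild-type libraries in the fit, 14 of the 15 named genes past the threshold lost their call (limma adjusted p from 0.17 to 0.288), all but Acp2. After correction for length and GC content 11 of the 15 did (adjusted p from 0.0535 to 0.0874), and Acp2, Slc13a3, Ly6a and Abat stayed past the threshold.

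Among transporters, Slc13a3 had the smallest p of the genes that fell. It encodes NaDC3, the sodium-coupled carrier that brings dicarboxylates such as alpha-ketoglutarate into tubule cells across the basolateral membrane. In water it read 226, 215, 268 and 272 RPKM in replicates 1 to 4, and in bicarbonate 149, 171, 169 and 169 RPKM. Every bicarbonate library was below every water library, and within the bicarbonate group replicate 1 was the low one. The log2 change was -0.57 ± 0.08 (SE, limma adjusted p = 0.0181), a 1.49-fold lower level. The gene spans 165405028 to 165473230 on the minus strand of chromosome 2 (GRCm38, GENCODE M21). Its promoter, from 250 bases before the start to 50 after it, is given because this is the gene that passed the threshold in both genotypes. It covers chr2:165473148-165473447 on the minus strand (GRCm38.p6, RefSeq) and holds 1 E-box, CACGTG, the element that clock and MYC family factors bind, in capitals at -154 from the start.

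Slc13a3: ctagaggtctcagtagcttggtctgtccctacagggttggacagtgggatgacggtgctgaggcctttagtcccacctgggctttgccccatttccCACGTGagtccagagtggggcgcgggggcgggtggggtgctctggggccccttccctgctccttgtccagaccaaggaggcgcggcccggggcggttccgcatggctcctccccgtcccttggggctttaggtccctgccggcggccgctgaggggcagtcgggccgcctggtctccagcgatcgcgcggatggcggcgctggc

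The E-box reads the same on both strands and lies in 7.15% of 32851 promoters of this length in the RefSeq table. Over the promoters of the genes tested the share was 9.59%. Of the promoters of the genes that fell, 6 were in that table, and Slc13a3 was the one with an E-box. Of the 6 promoters of the genes that rose, 2 held one, those of Plcxd1 and Ptbp1.

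Slc13a2, the apical citrate and dicarboxylate carrier NaDC1, was lower with overlapping groups, at 26.0, 23.1, 37.9 and 41.5 RPKM in water and 20.9, 18.2, 28.1 and 26.7 RPKM in bicarbonate (log2 change -0.43 ± 0.23, limma adjusted p = 0.481). In both groups replicates 1 and 2 were below replicates 3 and 4, although the numbers do not pair animals. Slc13a4, a sulfate carrier, was low throughout, at 1.48 to 2.20 RPKM in water and 0.753 to 1.25 RPKM in bicarbonate, with no overlap (limma adjusted p = 0.208). Of the 9 tested genes for dicarboxylate, citrate and sulfate transport, 1 was called (0.139% of all genes). Positive changes were found in 4 (48.6% of all genes), and the median log2 change of the list was -0.03.

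Slc22a8 encodes OAT3, an organic anion transporter of the basolateral membrane that exchanges its substrates for dicarboxylates. It read 196, 202, 187 and 189 RPKM in water and 151, 159.9, 151 and 166 RPKM in bicarbonate. The groups did not overlap and the fall was small and even, at -0.30 ± 0.05 on the log2 scale (limma adjusted p = 0.0468). OAT1, encoded by Slc22a6, read 103 to 136 RPKM in water and 88.5 to 106 RPKM in bicarbonate, with overlap (log2 change -0.27 ± 0.09, adjusted p = 0.251). Slc22a22, a prostaglandin carrier, read 22.1 to 42.3 RPKM in water and 9.59 to 24.9 RPKM in bicarbonate (log2 change -1.14 ± 0.30, adjusted p = 0.141). Slc22a4, a carrier of the antioxidant ergothioneine, had a log2 change of -0.52 ± 0.16 (adjusted p = 0.187). Over the 25 tested organic anion and cation transporters, 19 had negative changes (51.4% of all genes) and 1 was called (0.139% of all genes). At an unadjusted p under 0.05 there were 6, all lower, where 6.42% of all genes were lower. The median of the 25 was -0.27, and -0.13 without wild-type bicarbonate replicate 3, which was the lowest of the 8 libraries for 10 of them. Slc22a7, chosen after its values were seen, read 9.66 RPKM in that library against 65.5 to 86.7 RPKM in the other 7.

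Slc6a20b, which encodes a member of the sodium-dependent SLC6 carriers, read 91.4, 85.8, 69.8 and 76.8 RPKM in water and 49.97, 53.8, 50.9 and 60.6 RPKM in bicarbonate. The lowest water library stood above the highest bicarbonate library. The log2 change was -0.58 ± 0.09 (limma adjusted p = 0.0212). The gene overlaps Sacm1l on the other strand, and whether the authors' counting used strand is not stated in these sources. Its near relative Slc6a20a, the carrier of imino acids such as proline, read 12.9 to 19.0 RPKM in water and 8.61 to 15.2 RPKM in bicarbonate (log2 change -0.38 ± 0.21, adjusted p = 0.505), and reads could be split between them. The other 20 of 21 amino acid transporters tested were not called, where 0.139% of all genes were called. The list was evenly divided, with 10 positive changes (48.6% of all genes) and a median of 0.00.

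Slc13a3 and Slc22a8, already counted with the transporters, were also the called members among the 18 proximal tubule markers (0.139% of all genes). Of these markers 14 had negative changes (51.4% of all genes) and 5 had an unadjusted p under 0.05, all lower (6.42% of all genes). The median was -0.16, and -0.10 without wild-type bicarbonate replicate 3. In the knockout 8 of the 18 were negative and 10 positive, with a median of 0.03. Cubn and Lrp2, the endocytic receptors cubilin and megalin, had log2 changes of -0.24 ± 0.08 and -0.19 ± 0.09, and only Cubn had groups that did not overlap. Slc34a1, the sodium-phosphate cotransporter NaPi-IIa, had -0.23 ± 0.09 (adjusted p = 0.322). Hnf4a, the transcription factor that maintains proximal tubule identity, was at -0.01 ± 0.06. Cubn and Hnf4a were chosen after their values were seen. In these bulk slices fewer proximal tubule cells and less RNA per cell cannot be told apart.

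The peptidases of the renin and angiotensin list were mixed. Mme, which encodes neprilysin, read 47.2 to 55.0 RPKM in water and 28.4 to 41.5 RPKM in bicarbonate, and Enpep, aminopeptidase A, 59.2 to 67.6 RPKM and 49.2 to 55.5 RPKM. Neither gene overlapped between groups (limma adjusted p = 0.154 and 0.194). Ace, angiotensin-converting enzyme, read 39.1 to 52.5 RPKM and 13.7 to 43.1 RPKM, and Anpep, aminopeptidase N, 34.4 to 71.9 RPKM and 31.6 to 56.2 RPKM, both with overlap (adjusted p = 0.516 and 0.927). Ren1, which encodes renin, was scattered in both groups, at 82.1, 39.2, 22.5 and 26.7 RPKM in water and 38.6, 76.1, 183 and 58.7 RPKM in bicarbonate (log2 change 1.0 ± 0.49, adjusted p = 0.449). Of the 8 renin and angiotensin genes considered 6 were negative, against 51.4% of all genes, and the median was -0.17. Agt was not analysed here.

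Enpp6, a choline-specific phosphodiesterase that releases phosphocholine from lipid breakdown products, read 34.1, 38.9, 37.7 and 36.5 RPKM in water. In bicarbonate it read 22.0, 25.0, 25.1 and 27.4 RPKM. The gap between the groups was wider than the range within either, and the log2 change was -0.56 ± 0.09 (limma adjusted p = 0.0284). Of 14 choline and betaine genes tested, 1 was called (0.139% of all genes), and the median was -0.18. At an unadjusted p under 0.05, 5 were lower and 1 was higher, against 6.42% and 5.55% of all genes. The lower ones included Dmgdh, dimethylglycine dehydrogenase of the mitochondrial matrix, at 43.1 to 49.6 RPKM in water and 22.7 to 37.0 RPKM in bicarbonate with no overlap (adjusted p = 0.154). The higher one was Chkb, a choline kinase, at 0.30 ± 0.09 (adjusted p = 0.194).

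Wdr72 had the largest fall of the named genes past the threshold. It encodes a WD repeat protein of vesicle traffic, and its human orthologue is mutated in amelogenesis imperfecta and in distal renal tubular acidosis. The levels were 12.2, 10.1, 8.27 and 8.05 RPKM in water and 4.80, 5.04, 3.336 and 3.75 RPKM in bicarbonate. All bicarbonate libraries were below all water libraries, and the log2 change was -1.17 ± 0.20 (limma adjusted p = 0.0409), a 2.25-fold lower level. Afm, which encodes the vitamin E-binding protein afamin, read 34.6 to 41.2 RPKM in water and 19.4 to 27.6 RPKM in bicarbonate (-0.64 ± 0.12). Afm overlaps a gene model on the other strand.

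Abat encodes the mitochondrial GABA transaminase and Dbt the transacylase core of the branched-chain keto acid dehydrogenase. Abat read 81.0 to 95.3 RPKM in water and 62.1 to 73.5 RPKM in bicarbonate, and Dbt 41.7 to 46.5 RPKM and 31.1 to 36.2 RPKM. Plscr2, a phospholipid scramblase, read 265 to 320.5 RPKM and 190.0 to 241 RPKM. Ly6a, the surface protein known as Sca-1, read 289 to 325 RPKM in water and 212 to 232 RPKM in bicarbonate. In these 4 genes the groups did not overlap and the log2 changes lay between -0.37 for Dbt and -0.45 for Plscr2 (limma adjusted p from 0.0181 for Ly6a to 0.0468 for Dbt and Plscr2). The 3 further genes that fell are counted only.

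Among the 5 genes that rose past the threshold, Acp2 changed most. It read 2.73, 4.57, 3.99 and 5.13 RPKM in water against 35.2, 26.2, 31.3 and 42.8 RPKM in bicarbonate. The lowest bicarbonate library stood far above the highest water library. The log2 change was 3.03 ± 0.37 (limma adjusted p = 0.00592), an 8.15-fold higher level. Acp2 lies on chromosome 2 from 91202885 to 91214098 on the plus strand and overlaps Ddb2 on the minus strand. The level of Acp2 was wide in the IRR knockout groups, at 12.3, 22.6, 13.6 and 47.5 RPKM on water and 11.4, 27.5, 19.2 and 19.4 RPKM on bicarbonate. The 4 wild-type water libraries were thus the low ones of all 16.

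Of 27 lysosomal hydrolases and membrane proteins considered 16 were positive, against 48.6% of all genes. Acp2 was the called one (0.139% of all genes). At an unadjusted p under 0.05 (limma), 5 were higher and 1 was lower, against 5.55% and 6.42% of all genes. The median was 0.05, and -0.03 without wild-type bicarbonate replicate 3. Neu1, the sialidase, read 82.0 to 106 RPKM in water and 110.2 to 129 RPKM in bicarbonate, without overlap (0.33 ± 0.09, limma adjusted p = 0.142).

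Ptbp1 encodes a splicing repressor of the polypyrimidine tract-binding family. It read 69.8, 68.8, 66.2 and 77.2 RPKM in water and 92.4, 105, 91.3 and 103 RPKM in bicarbonate (log2 change 0.47 ± 0.08, limma adjusted p = 0.0284). Plcxd1, a protein with a phospholipase C-like X domain, read 0.437 to 0.722 RPKM and 1.11 to 2.17 RPKM (1.40 ± 0.24, adjusted p = 0.0409). Rasa3, a GTPase-activating protein for Ras and Rap, read 1.89 to 2.02 RPKM and 2.99 to 4.26 RPKM (0.80 ± 0.14), and Arl4d, a small GTPase of the ARF family, 10.2 to 14.4 RPKM and 17.8 to 20.7 RPKM (0.64 ± 0.12). None of the 4 genes overlapped between groups, although Plcxd1 and Rasa3 were near the low end of the table. Ptbp1 and Plcxd1 overlap other gene models on the opposite strand.

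**Figure D1:**
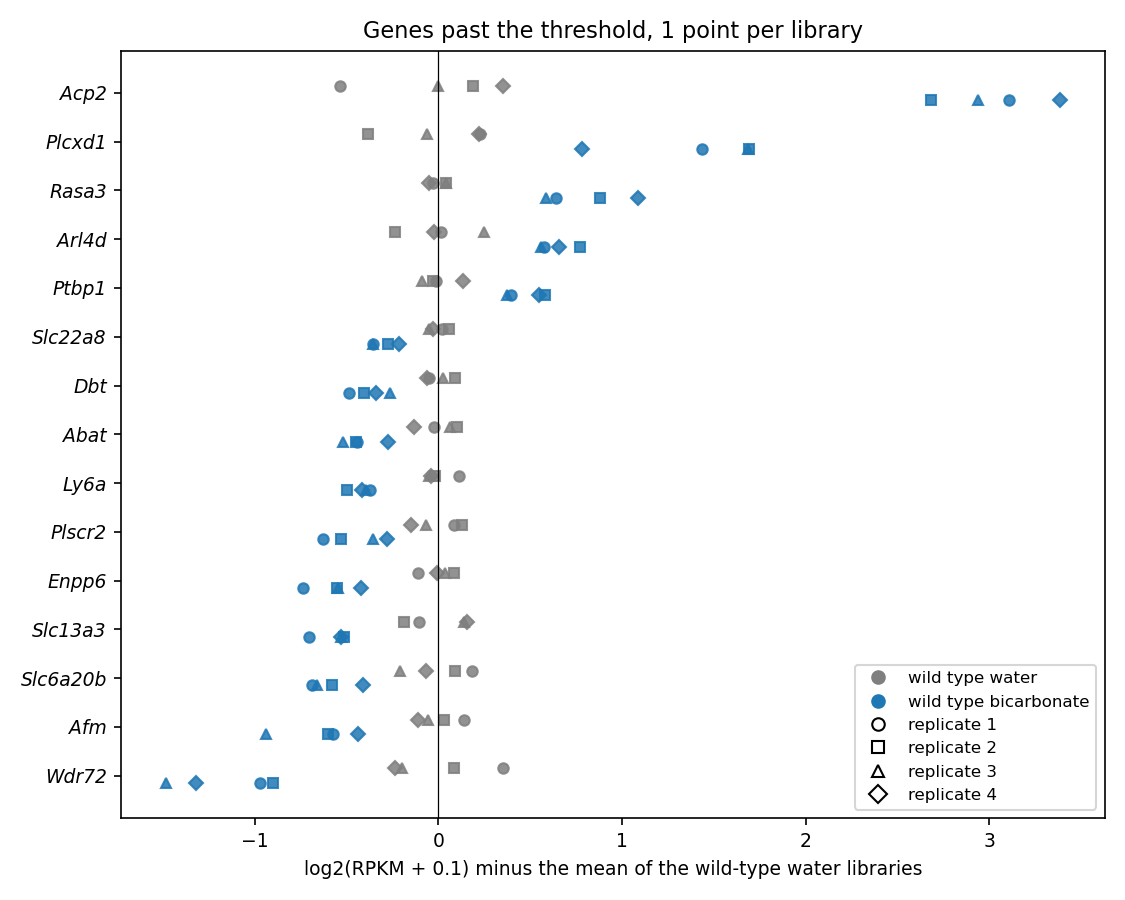
Log2(RPKM + 0.1) of the 15 named genes past the threshold in each wild-type library, as the difference from the mean of the 4 water libraries of that gene (x axis); grey marks are water, blue marks bicarbonate and the shape gives the replicate. No gene overlaps between groups, and Acp2 sits at the far right with a log2 change of 3.03.

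The 14 genes that came next by p with groups that did not overlap had limma adjusted p of 0.061 each. Of these 13 were lower and 1, Cox6b2, was higher. Ugt1a2, a glucuronosyltransferase, was the most abundant, at 746, 738, 758 and 629 RPKM in water and 424, 439, 379 and 438 RPKM in bicarbonate, and it shares exons with the other Ugt1a genes. Pdzk1, the scaffold that holds transporters at the brush border, read 422 to 456 RPKM and 297 to 368 RPKM. Ak4, an adenylate kinase of mitochondria, read 126 to 157 RPKM and 63.8 to 114 RPKM, and Prnp, the prion protein, 109 to 145 RPKM and 61.0 to 99.1 RPKM. Cox6b2, a subunit isoform of cytochrome c oxidase best known from testis, read 10.2, 10.2, 15.1 and 17.8 RPKM in water and 21.4, 20.6, 37.9 and 29.3 RPKM in bicarbonate. The remaining 9 were Scoc, Mettl26, Lrrc8c, Ikzf2, Stxbp4, Fut9, Klhl9, Tbc1d19 and P2ry1. Their log2 changes ran from -0.80 for P2ry1, a purinergic receptor, to -0.37 for Klhl9.

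The IRR knockout gave the same contrast in animals that are not shared with the wild-type groups. In the knockout 3 of 12943 genes passed (0.0232%) and 1034 had an unadjusted p under 0.05 (7.99%). Of the 15 named genes called in wild type, 14 had a change of the same sign in the knockout, against 51.8% of all genes tested, and 6 had an unadjusted p under 0.05 there. In 14 of the 15 the knockout change was the smaller one. Since the genes were selected for a large change in wild type, a smaller value in other animals is no test of a difference. The 10 that fell had a median log2 change of -0.51 in wild type and -0.12 in the knockout, and the 5 that rose 0.80 and 0.20.

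Slc13a3 was the gene called in both genotypes. In the knockout it read 304, 321, 300.2 and 272 RPKM on water and 188, 193, 197 and 175 RPKM on bicarbonate (log2 change -0.67 ± 0.08, limma adjusted p = 0.00503). It was thus lower with bicarbonate in 8 of 8 animals, each below all water libraries of its own genotype. Enpp6 read 30.2 to 39.2 RPKM and 21.1 to 25.9 RPKM in the knockout (-0.53 ± 0.09, adjusted p = 0.105), next to -0.56 in wild type. Slc22a8 had -0.22 ± 0.05 (adjusted p = 0.301). For these 3 genes the unadjusted p of the interaction, the difference between the responses, was 0.416, 0.813 and 0.332.

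For the other 12 the unadjusted interaction p was under 0.05 (8.19% of all genes), and none passed after adjustment (limma; 0.0155% of all genes). The wild-type change that chose these genes is part of the interaction, so nothing is read from that count. Acp2 came nearest, with a knockout change of -0.15 ± 0.37 and an interaction adjusted p of 0.0844. In 6 genes, Acp2, Ptbp1, Wdr72, Plscr2, Dbt and Afm, the 4 wild-type water libraries lay outside the range of all other 12 libraries (1.92% of all genes), a pattern that the choice of the genes favours. Wdr72 illustrates this, with 8.05 to 12.2 RPKM in wild-type water against 3.336 to 6.00 RPKM in the other 12. Plscr2 had 265 RPKM or more in wild-type water and 155 to 241 RPKM elsewhere. For Acp2, 3 of the 4 knockout libraries on water lay between the wild-type groups.

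**Figure D2:**
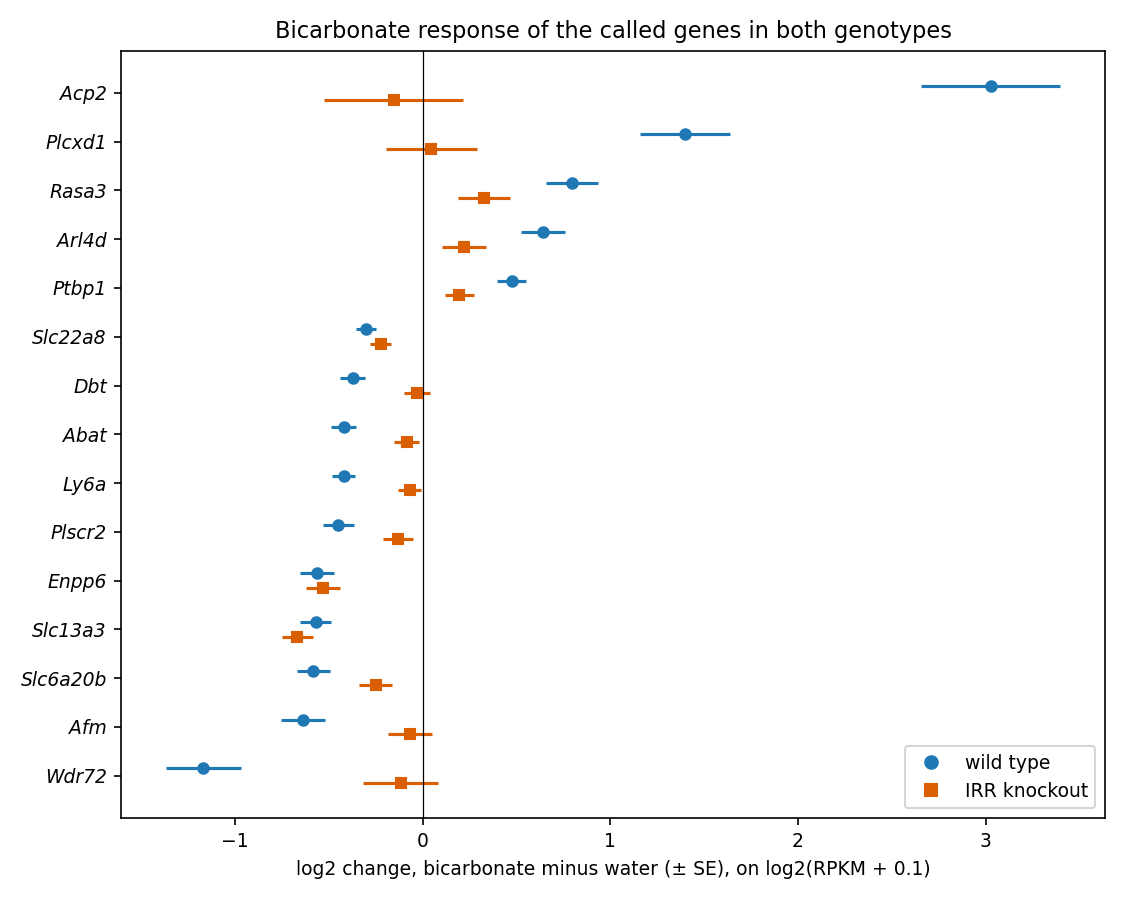
Log2 change with bicarbonate, with SE, for the 15 named genes past the threshold in wild type (blue circles) and in the IRR knockout (orange squares), 4 libraries in each of the 4 groups. Slc13a3, Enpp6 and Slc22a8 have similar values in both genotypes, whereas Acp2 is at 3.03 in wild type and -0.15 in the knockout.

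Across all genes the log2 changes of both genotypes had a Pearson r of 0.0224, where genes are not independent replicates. Among the 1549 genes with an unadjusted p under 0.05 in wild type, 59.8% had the same sign in the knockout. In both genotypes 208 of 12943 genes had an unadjusted p under 0.05, where 12.0% of all genes did in wild type and 7.99% in the knockout. Of the 208, 167 had the same sign, 118 lower and 49 higher, against 51.8% of all genes tested.

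**Figure D3:**
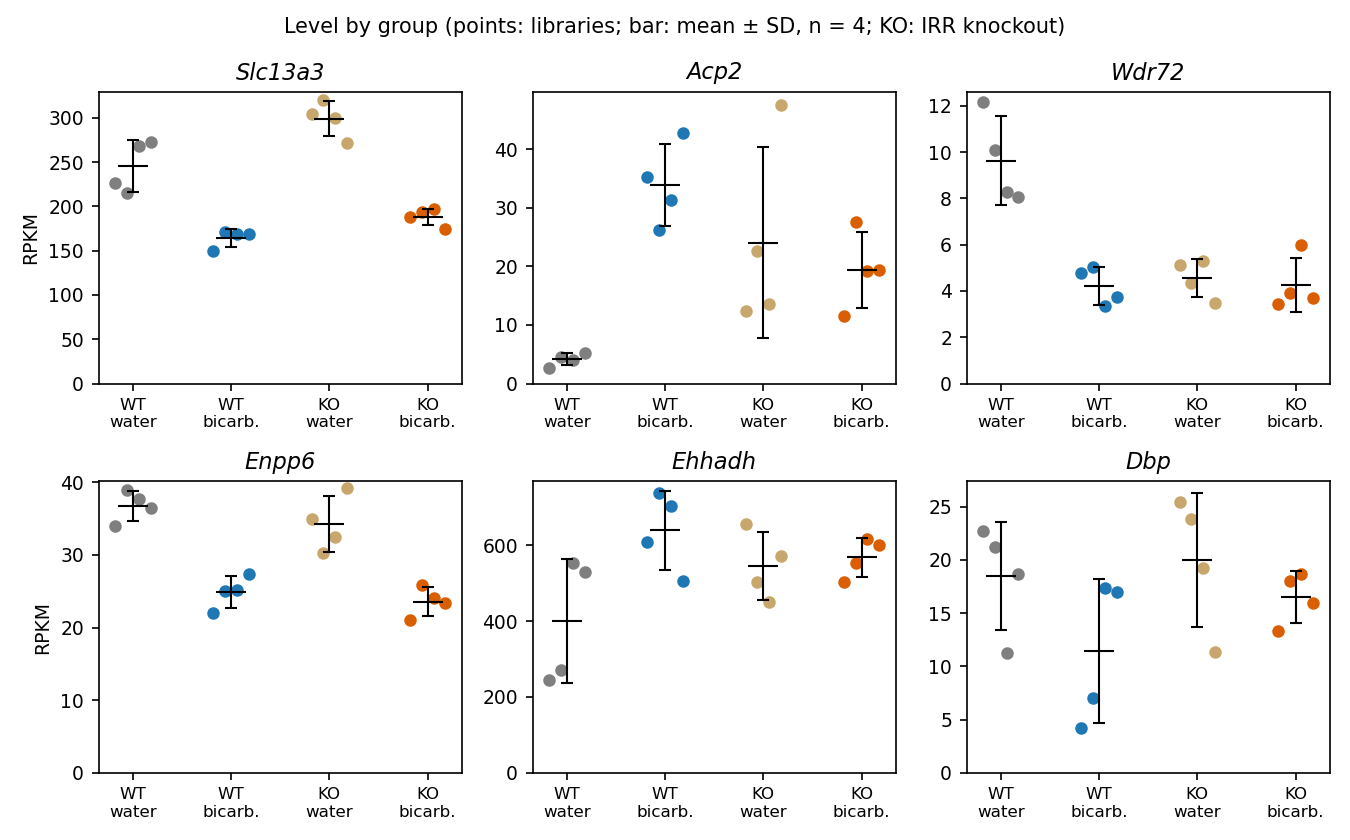
RPKM (y axis, from 0) of 6 genes in the 4 groups, 1 point per library with mean and SD (n = 4). Slc13a3 and Enpp6 are lower with bicarbonate in both genotypes, Acp2 and Wdr72 are set apart by the wild-type water group, and Ehhadh and Dbp vary widely within the wild-type groups.

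Genes of acid and ammonia handling did not pass the threshold. Of 17 genes of ammoniagenesis and gluconeogenesis considered 0 were called (limma) and 0 had an unadjusted p under 0.05, and the median log2 change was -0.03. Glud1, glutamate dehydrogenase, read 279, 299, 491 and 494 RPKM in water and 297 to 324 RPKM in bicarbonate. Pck1, phosphoenolpyruvate carboxykinase, read 1345, 889.7, 2809 and 2523 RPKM in water and 1182 to 1524 RPKM in bicarbonate. For both enzymes water replicates 3 and 4 were high while replicates 1 and 2 lay at or near the bicarbonate values, and the adjusted p were 0.53 and 0.694. Slc38a3, the glutamine carrier SNAT3, had the same layout, at 27.3, 29.4, 69.4 and 66.4 RPKM in water and 21.6 to 47.6 RPKM in bicarbonate.

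The bicarbonate and proton exchangers along the tubule had 8 positive changes of 18 and a median of -0.01. Slc4a4, the basolateral sodium-bicarbonate cotransporter, read 190.3 to 254 RPKM in water and 209 to 254 RPKM in bicarbonate, a log2 change of -0.01 ± 0.09. Car2, the cytosolic carbonic anhydrase, read 235 to 272 RPKM and 198 to 239 RPKM, with overlap (-0.25 ± 0.07, limma adjusted p = 0.154). Slc9a2, a sodium-proton exchanger, read 6.44 to 8.47 RPKM and 4.27 to 6.50 RPKM (-0.46 ± 0.17, adjusted p = 0.304), and its water replicate 2 was the low one. Car4, the membrane carbonic anhydrase, had 0.20 ± 0.16. Slc9a3, the main apical exchanger of the proximal tubule, was not analysed here.

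Type A intercalated cell genes were on the positive side in 6 of 7, against 48.6% of all genes, and the remaining 1 was at -0.75. At an unadjusted p under 0.05 (limma) there were 3, all higher, where 5.55% of all genes were higher. The median log2 change was 0.43. Wild-type bicarbonate replicate 3 was the highest of the 8 libraries for 5 of the 7 genes. Without it the median was 0.23, and 1 gene had an unadjusted p under 0.05. In the knockout 2 of 7 were positive, with a median of -0.11. Slc4a1, the basolateral chloride-bicarbonate exchanger AE1 of these cells, read 13.8, 9.49, 15.5 and 15.7 RPKM in water and 16.8, 17.4, 30.6 and 20.6 RPKM in bicarbonate. The groups did not overlap, and replicate 3 was the high library of the bicarbonate group (log2 change 0.63 ± 0.22, limma adjusted p = 0.25). Slc4a1 is also made by red cells, and the summed haemoglobin markers ran from 501 to 1572 RPKM in water and from 812 to 1550 RPKM in bicarbonate. All 5 haemoglobin markers had positive changes, with a median of 0.34 and 0 called. The part of red cells in the Slc4a1 values was not tested. Dmrt2, a transcription factor of the type A list, read 1.65 to 2.18 RPKM in water and 2.10 to 3.10 RPKM in bicarbonate. Foxi1, the transcription factor of intercalated cells, is counted with the shared genes below, of which 9 of 19 were positive. It read 9.76 to 12.9 RPKM in water and 11.2 to 21.6 RPKM in bicarbonate (0.50 ± 0.18, limma adjusted p = 0.269).

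Type B genes had 2 positive changes of 5 and a median of -0.02. Slc26a4, which encodes pendrin, read 33.0 to 46.6 RPKM in water and 30.4 to 35.8 RPKM in bicarbonate (log2 change -0.20 ± 0.11, limma adjusted p = 0.519). Among 19 proton pump and shared intercalated cell genes 0 were called, and the median was -0.02. Atp6v1b1, the pump subunit particular to these cells, read 49.4 to 50.3 RPKM in water and 40.6 to 52.1 RPKM in bicarbonate. Rhcg, the ammonia channel of the collecting duct, was at -0.02 ± 0.11.

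The salt transporters of the loop and distal tubule gave values close to 0. Slc12a1, the furosemide-sensitive cotransporter, was at -0.08 ± 0.12, Slc12a3, the thiazide-sensitive one, at -0.01 ± 0.08 and Umod, uromodulin, at -0.01 ± 0.10. Scnn1a, a sodium channel subunit, was at 0.00 ± 0.14. The smallest p of this list was that of Kcnj16, a basolateral potassium channel subunit, at 251 to 294 RPKM in water and 196 to 253 RPKM in bicarbonate (-0.28 ± 0.07, limma adjusted p = 0.133). Of 20 genes for loop and distal salt transport and 17 for sodium channel and corticoid response, 0 were called, with medians of -0.01 and 0.00.

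Among corticoid genes Nr3c1, the glucocorticoid receptor, read 22.4, 28.6, 22.6 and 23.7 RPKM in water and 19.2, 17.5, 19.1 and 19.6 RPKM in bicarbonate, without overlap (log2 change -0.36 ± 0.09, limma adjusted p = 0.105). Zbtb16, a transcription factor induced by glucocorticoids, read 9.22 to 15.5 RPKM and 2.00 to 8.59 RPKM, also without overlap (-1.38 ± 0.59, adjusted p = 0.373). Sgk1, a kinase induced by aldosterone and glucocorticoids, read 220 to 314 RPKM and 295 to 475 RPKM, with overlap (0.56 ± 0.31, adjusted p = 0.508).

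Cyp27b1, the enzyme that makes active vitamin D, had the largest log2 change of the calcium, magnesium and phosphate genes. It read 1.61, 1.89, 6.26 and 4.74 RPKM in water and 5.03, 10.6, 66.5 and 18.6 RPKM in bicarbonate. Replicate 3 made up most of the bicarbonate mean, and replicate 1 lay inside the water range (log2 change 2.34 ± 0.73, limma adjusted p = 0.208). Cyp24a1, which breaks active vitamin D down, overlapped fully, at 4.17 to 31.9 RPKM and 4.43 to 34.0 RPKM. The 11 genes for collecting duct water channels and medullary osmolytes had 6 positive changes and a median of 0.00, and of 0.32 without bicarbonate replicate 3, which was the lowest of the 8 libraries for 8 of them. Their summed level was 630 to 722 RPKM in water and 1272, 716, 437 and 937 RPKM in bicarbonate. Aqp2, the vasopressin-regulated water channel, was at 0.32 ± 0.22 and Nfat5, the factor that answers to high tonicity, at -0.13 ± 0.11.

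Targets of PPAR alpha, the receptor that switches on fatty acid oxidation and ketone synthesis in fasting, were positive in 15 of 16, against 48.6% of all genes, with a median log2 change of 0.77. None was called (limma), and 9 had an unadjusted p under 0.05, all higher, where 5.55% of all genes were higher at that p. Ehhadh, an enzyme of peroxisomal oxidation, was lowest in water replicates 1 and 2, at 245, 272, 553 and 529.6 RPKM in water and 609, 739, 703 and 506 RPKM in bicarbonate. Acot1, an acyl-CoA thioesterase, read 16.8 to 37.0 RPKM and 32.1 to 80.3 RPKM (1.14 ± 0.31, adjusted p = 0.152).

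The median of this list by library, as the deviation from the mean of the 8 wild-type libraries, was -0.54, -0.74, 0.14 and 0.02 in water replicates 1 to 4 and 0.21, 0.40, 0.86 and -0.02 in bicarbonate. Bicarbonate replicate 3 had the highest value of the 8 in 13 of the 16 genes, and water replicates 1 and 2 had the lowest in 6 and 7. Without bicarbonate replicate 3 the list median was 0.50, with 15 positive and 5 at an unadjusted p under 0.05. In the knockout the median was 0.05. Food intake before the fast is not given in the labels, and its part in the result was not tested.

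Fabp1, the fatty acid-binding protein of liver and proximal tubule, had a wide range between libraries and was chosen after its values were seen. It read 2.59, 4.24, 14.4 and 14.4 RPKM in water and 10.9, 29.8, 36.5 and 18.3 RPKM in bicarbonate (limma adjusted p = 0.241). Its promoter, chr6:71199629-71199928 on the plus strand (GRCm38.p6, RefSeq), is shown because it alone of the 11 promoters found for this list holds the PPAR direct repeat core searched, AGG, any base, CA, any base and AGG on either strand. The match, on the reverse strand at -64 from the start, is in capitals. Such a match lies in 2.96% of all promoters and 2.60% of those of the genes tested.

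Fabp1: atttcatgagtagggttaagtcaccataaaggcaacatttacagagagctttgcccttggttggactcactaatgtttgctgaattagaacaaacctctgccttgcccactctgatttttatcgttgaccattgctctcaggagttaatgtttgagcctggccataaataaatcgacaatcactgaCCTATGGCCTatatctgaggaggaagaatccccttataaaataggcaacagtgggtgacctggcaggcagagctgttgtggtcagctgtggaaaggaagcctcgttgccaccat

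Cholesterol synthesis genes were negative in 11 of 15, against 51.4% of all genes, with a median log2 change of -0.19 and 0 called. The median was -0.11 without bicarbonate replicate 3 and -0.30 without bicarbonate replicate 4, and -0.12 and -0.11 without water replicates 1 and 2. Hmgcs1, the cytosolic synthase at the head of the pathway, read 121, 129, 133 and 143 RPKM in water and 96.2, 88.4, 90.7 and 109.6 RPKM in bicarbonate. The groups did not overlap (-0.45 ± 0.09, limma adjusted p = 0.0647), and the knockout change was -0.52 ± 0.09 (adjusted p = 0.141). Fdft1, squalene synthase, read 4.61 to 10.2 RPKM and 2.76 to 4.88 RPKM, with overlap, and its gene model overlaps Ctsb. Of 16 glycolysis genes 10 were positive with a median of 0.10, and Eno1, enolase, was highest in bicarbonate replicate 3 at 698 RPKM against 351 to 487 RPKM in the other 7.

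Interferon response genes were negative in 18 of 18, against 51.4% of all genes, with a median log2 change of -0.33. None was called (limma), and 3 had an unadjusted p under 0.05, all lower, where 6.42% of all genes were lower at that p. Ifit3, an antiviral protein induced by interferon, read 29.8, 28.8, 21.5 and 21.5 RPKM in water and 12.6, 19.8, 16.7 and 24.4 RPKM in bicarbonate, with overlap (adjusted p = 0.25). Irf7, a factor that amplifies the response, read 6.64 to 15.1 RPKM and 4.21 to 11.3 RPKM.

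The list median by library was 0.31, 0.30, -0.002 and 0.0033 in water and -0.02, -0.26, -0.16 and -0.16 in bicarbonate. Water replicates 1 and 2 had the highest value of the 8 in 8 and 6 of the 18 genes. Every bicarbonate library was below every water library in this median, and without bicarbonate replicate 3 the list median was -0.31. In the knockout it was -0.03. Markers of immune cells were negative in 6 of 9 with a median of -0.08, and antigen presentation genes in 5 of 9 with -0.01. Whether immune cells had a part in the result was not tested.

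Promoters of 15 of the 18 interferon genes were in the RefSeq table. The core of the interferon response element, 2 copies of GAAA with 2 bases of any kind between them, was searched on either strand. It was found in 8 of the 17 promoters of these genes (47.1%). The share was 3.44% of all promoters and 3.11% of those of the genes tested. The 2 below are shown to let the paired elements of neighbouring family members be compared. They cover chr19:34583279-34583578 for Ifit3 and chr19:34640639-34640938 for Ifit1, both on the plus strand (GRCm38.p6), and the matches, in capitals, read on the reverse strand at -156 and -122 in Ifit3 and at -104 and -85 in Ifit1.

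Ifit3: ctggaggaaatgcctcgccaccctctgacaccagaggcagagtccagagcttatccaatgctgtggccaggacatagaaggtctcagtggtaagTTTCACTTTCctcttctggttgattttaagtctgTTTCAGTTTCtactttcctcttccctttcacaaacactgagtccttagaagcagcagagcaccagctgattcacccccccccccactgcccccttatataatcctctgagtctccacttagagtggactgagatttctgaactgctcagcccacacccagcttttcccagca
Ifit1: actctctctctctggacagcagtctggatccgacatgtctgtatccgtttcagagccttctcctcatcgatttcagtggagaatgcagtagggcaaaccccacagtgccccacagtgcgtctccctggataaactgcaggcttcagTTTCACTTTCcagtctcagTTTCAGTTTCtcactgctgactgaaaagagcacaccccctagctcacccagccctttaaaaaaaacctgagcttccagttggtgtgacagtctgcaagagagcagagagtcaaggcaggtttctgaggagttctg

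Ifit1, shown for its sequence, read 3.14 to 7.74 RPKM in water and 3.17 to 3.98 RPKM in bicarbonate, with overlap (limma adjusted p = 0.472). A match is a description of the letters and does not show that a factor was bound.

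Clock genes and their outputs were negative in 14 of 18, against 51.4% of all genes. The median log2 change was -0.26 and 0 were called. An unadjusted p under 0.05 was found for 5 (27.8%), against 12.0% of all genes. The low values were in 2 of the 4 bicarbonate libraries, and the median was -0.08 without bicarbonate replicate 1. Dbp, an output factor of the clock, read 22.7, 21.2, 11.2 and 18.7 RPKM in water and 4.20, 7.07, 17.4 and 17.0 RPKM in bicarbonate (-0.87 ± 0.40, limma adjusted p = 0.412). Ciart, a repressor of the clock, read 20.1, 13.5, 17.2 and 20.3 RPKM and 4.80, 6.17, 13.5 and 13.8 RPKM (-1.02 ± 0.29, adjusted p = 0.172). Nr1d2, the nuclear receptor REV-ERB beta, read 39.9, 47.6, 39.3 and 40.05 RPKM and 23.1, 26.3, 35.2 and 36.4 RPKM, with no overlap (-0.48 ± 0.13, adjusted p = 0.133). In all 3 genes bicarbonate replicates 1 and 2 were low and replicates 3 and 4 lay at or near the water range.

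Of the positive factors of the clock, Arntl and Npas2 had their highest values in those 2 libraries and Clock did not. Arntl, the positive factor BMAL1, read 1.18 to 1.97 RPKM in water and 4.02, 2.83, 0 and 1.82 RPKM in bicarbonate, where the third library is listed at 0. Npas2, chosen after its values were seen, read 0.312 to 0.998 RPKM in water and 4.18, 1.97, 0.259 and 0.838 RPKM in bicarbonate. Clock was low in all wild-type libraries, at 0.119 to 0.392 RPKM in water and 0.177 to 0.278 RPKM in bicarbonate. These values are under the 0.5 RPKM of the filter, which Clock passed through knockout libraries. The list median by library was 0.09 to 0.19 in water and -0.45, -0.34, 0.30 and 0.21 in bicarbonate. The hour at which each kidney was taken is not given in the labels, and its part in the result was not tested.

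The E-box was found in 6 of the 20 promoters of clock genes in the table, from 5 genes. Its share was 7.15% of all promoters and 9.59% of those of the genes tested. The D-box, TTATGNAA on either strand, was found in 2 of the 20, against 3.38% and 2.13%. Ciart is shown for its 3 E-boxes, at -116, -58 and -44, and Per3, a period gene chosen after its values were seen, for its 2 D-boxes, at -205 and -158. They cover chr3:95882179-95882478 and chr4:151044616-151044915, both on the minus strand (GRCm38.p6), with matches in capitals.

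Ciart: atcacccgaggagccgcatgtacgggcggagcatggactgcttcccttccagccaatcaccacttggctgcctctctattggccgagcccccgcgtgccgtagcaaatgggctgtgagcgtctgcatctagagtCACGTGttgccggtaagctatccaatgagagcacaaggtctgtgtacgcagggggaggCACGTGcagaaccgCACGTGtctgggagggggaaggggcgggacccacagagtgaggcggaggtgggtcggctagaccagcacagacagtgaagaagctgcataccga
Per3: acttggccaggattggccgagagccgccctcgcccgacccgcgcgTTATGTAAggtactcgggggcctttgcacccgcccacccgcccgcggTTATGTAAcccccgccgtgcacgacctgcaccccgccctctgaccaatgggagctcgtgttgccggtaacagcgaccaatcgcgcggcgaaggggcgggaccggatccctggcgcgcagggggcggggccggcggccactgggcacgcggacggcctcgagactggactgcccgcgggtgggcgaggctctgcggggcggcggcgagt

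Per3 read 11.6, 11.6, 10.03 and 10.03 RPKM in water and 4.25, 4.86, 11.7 and 10.1 RPKM in bicarbonate (limma adjusted p = 0.358), the layout of Dbp.

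**Figure D4:**
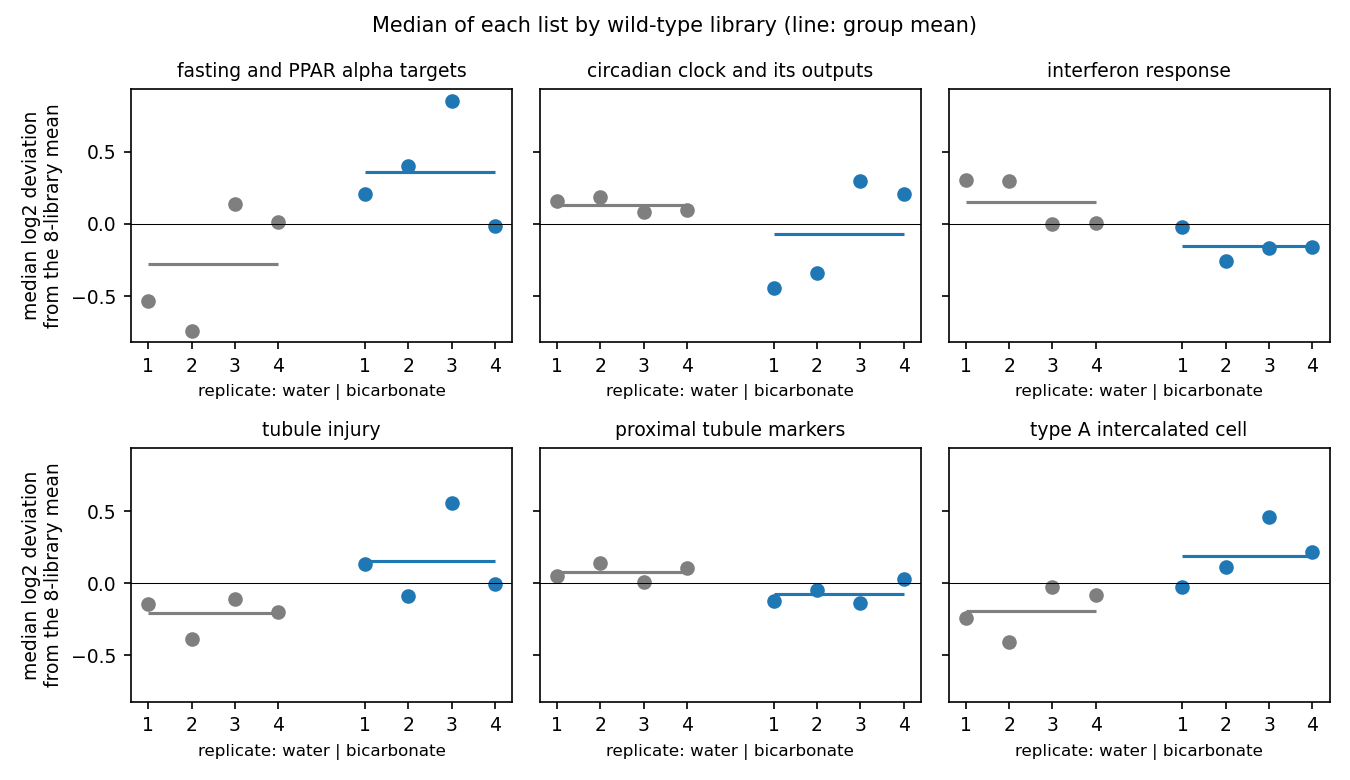
Median log2 deviation of 6 gene lists in each wild-type library from the mean of the 8 libraries (y axis), with replicates 1 to 4 of water in grey and of bicarbonate in blue and a line at each group mean. The PPAR alpha panel shows water replicates 1 and 2 low at -0.54 and -0.74, the clock panel shows bicarbonate replicates 1 and 2 low at -0.45 and -0.34, and bicarbonate replicate 3 is highest for tubule injury at 0.56.

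Tubule injury genes were positive in 11 of 13, against 48.6% of all genes. Their median log2 change was 0.56, which was 0.11 without bicarbonate replicate 3. Lcn2, the injury marker NGAL, read 4.23, 4.07, 2.96 and 4.47 RPKM in water and 6.38, 4.76, 18.1 and 4.07 RPKM in bicarbonate, and Havcr1, KIM-1, 0.0603 to 0.36 RPKM and 0.133 to 1.87 RPKM. Neither was called (limma adjusted p = 0.412 and 0.404), and the median of the list in the knockout was -0.19. The same library was low for Kap, an androgen-regulated protein of the proximal tubule, at 742 RPKM against 5998 to 13110 RPKM in the other 7. Sex-hormone dependent kidney genes had a median of -0.30, and of 0.02 without that library. Esr1, the estrogen receptor alpha, did not follow it, at 2.34, 1.85, 2.17 and 2.06 RPKM in water and 1.05, 1.11, 1.28 and 1.44 RPKM in bicarbonate, with no overlap (-0.74 ± 0.16, adjusted p = 0.0784). Prlr, the prolactin receptor, read 90.8 to 116 RPKM and 34.4 to 81.1 RPKM, lowest in replicate 3 (adjusted p = 0.24).

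Of 14 immediate early and 12 cell cycle genes 0 were called (limma). At an unadjusted p under 0.05 there were 2 in each list (14.3% and 16.7%), near the 12.0% of all genes. The median log2 change was 0.18 for immediate early genes and 0.27 for cell cycle genes. The first was 0.06 without bicarbonate replicate 3, 0.08 without water replicate 2 and 0.11 without bicarbonate replicate 1, and was 0.29 and 0.32 without water replicate 3 and bicarbonate replicate 2. The second was 0.15 without water replicate 3. Nr4a1, an orphan nuclear receptor induced within minutes of a stimulus, read 1.17, 0.947 and 0.626 RPKM in water replicates 2 to 4 and is listed at 0 in replicate 1, against 3.91, 1.32, 2.38 and 1.40 RPKM in bicarbonate (limma adjusted p = 0.223). Fos read 0.697 to 1.47 RPKM and 0.533 to 2.29 RPKM. Knstrn, a spindle protein, read 0.43 to 0.80 RPKM and 1.24 to 2.25 RPKM without overlap in wild type (1.06 ± 0.28, adjusted p = 0.134) and was on the other side in the knockout (-1.48 ± 0.28), with an interaction adjusted p of 0.052. Spc25, a kinetochore protein, had -0.36 ± 0.11 in wild type (adjusted p = 0.209) and was called in the knockout at -0.77 ± 0.11 (adjusted p = 0.0258).

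Of 17 oxidative stress genes 5 had an unadjusted p under 0.05 (29.4%, against 12.0% of all genes), 3 lower and 2 higher. Changes ran from -0.33 to 0.65 with a median of -0.02. Gsta2, a glutathione transferase, read 726 to 866 RPKM in water and 578 to 719 RPKM in bicarbonate, without overlap (-0.33 ± 0.10, limma adjusted p = 0.186), next to -0.36 ± 0.10 in the knockout. Srxn1, sulfiredoxin, was among the higher ones at 0.32 ± 0.13 (adjusted p = 0.336), and Hmox1, haem oxygenase, had the largest change, at 9.16 to 13.3 RPKM and 11.2 to 37.8 RPKM. The median was -0.04 over 13 heat shock genes and -0.10 over 18 insulin and IGF signalling genes. Marker lists of podocytes, endothelium, stroma, immune cells, blood haemoglobin, urothelium, adrenal gland and adipose tissue held 0 called genes each, with 0 to 1 at an unadjusted p under 0.05.

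**Figure D5:**
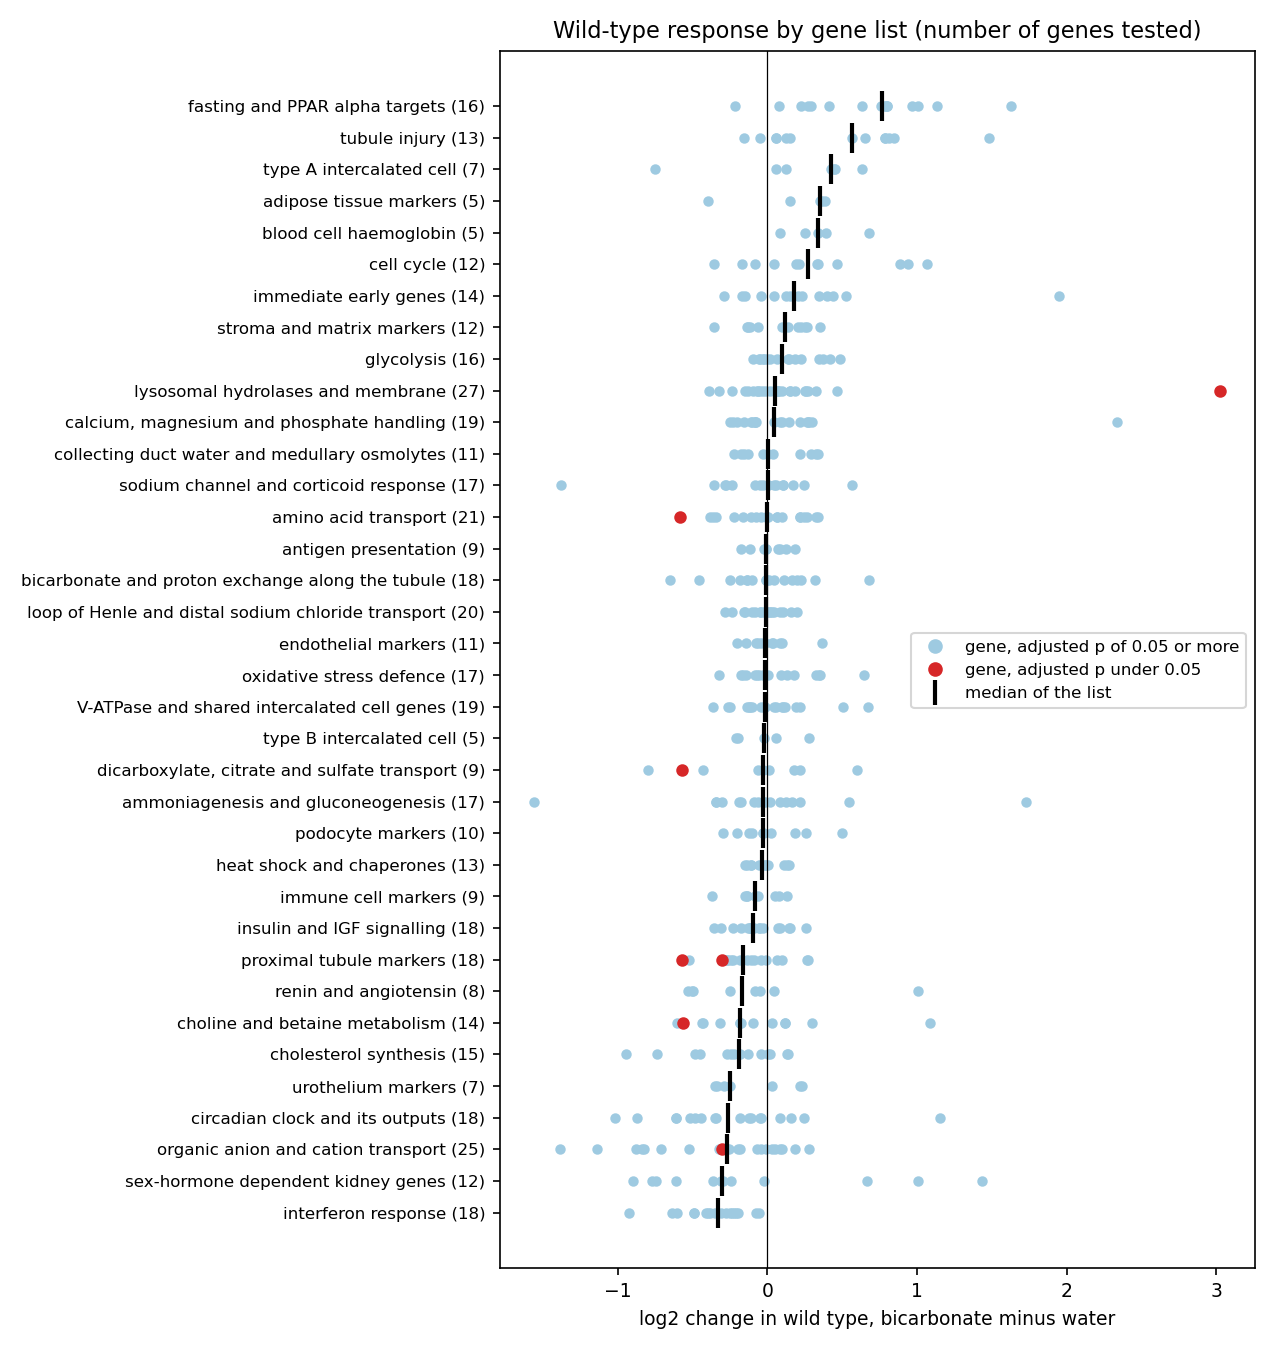
Wild-type log2 change with bicarbonate (x axis) of each tested member of the gene lists with 3 or more members (rows, with the number tested), with a bar at each list median, red points for genes past the threshold and a vertical line at the median of all genes. The list medians run from -0.33 for the interferon response to 0.77 for PPAR alpha targets, and neither of these lists holds a red point.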

How the data were processed

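RNA from 16 kidneys was sequenced as 1 library per animal with Illumina protocols, per the labels' protocols. The authors deposited 1 table of RPKM values per gene. Per the submitters' processing notes, Salmon 1.5.2, edgeR 3.34.0, GRCm39 and mm10 belong to the processing, without a role for any of them, and the annotation and the use of strand are not stated. The deposited RPKM did not resolve into whole reads, so depth is unknown and counting error is not given. An exact 0 may be a failed estimate and is described as listed at 0.

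All 13430 gene IDs matched a symbol in GENCODE M21 (GRCm38). Genes with at least 0.5 RPKM in at least 4 of 16 libraries were tested, 12943 in all, and 487 were not. Group means of all 16 libraries were fitted to log2(RPKM + 0.1) with limma 3.58.1 (R 4.3.3), using a variance trend and robust shrinkage, with 12 residual degrees of freedom. The interaction was the knockout response minus the wild-type response. Each p-value sets a difference of group means against the spread between libraries within groups, 1 per animal, estimated over all 16 libraries. The fit was tested before use on simulated data with independent noise in each gene. That setting does not cover a library that deviates over many genes, such as wild-type bicarbonate replicate 3.

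Named genes were those past the threshold, the next by p without overlap until 30 were reached, fixed key genes and up to 3 members per list at an unadjusted p under 0.05, in all 106, of which a part is described. Of 517 listed genes in 37 lists 486 were tested. Some genes are not reported here and were left out of the named genes, the lists and their counts, and of the plots, but not of the fit or the counts over all genes. The lists and members were chosen with earlier results of these data known. Promoters came from RefSeq (GRCm38.p6), matched by symbol. Alternatives were another pseudocount, other filters, scalings, variance fits and sample sets, a replicate block, a length and GC correction and leaving out each library.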

Additional observations from a re-analysis of the deposited data

Results flagged for a closer look

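Single libraries stood apart from the other 3 of their group in 10 of 212 groups of 4 looked at, by Dixon's criterion, where chance gives 10.6. In wild-type bicarbonate, these were Slc13a3 in replicate 1 at 149 RPKM against 169 to 171, Fos in replicate 1 at 2.29 against 0.533 to 0.692 and Lcn2 in replicate 3 at 18.1 against 4.07 to 6.38. Bicarbonate replicate 4 stood apart for Stxbp4 at 8.22 RPKM against 6.48 to 6.71 and for Knstrn at 2.25 against 1.24 to 1.34.

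In wild-type water, replicate 2 stood apart for Per1 at 13.4 RPKM against 16.2 to 16.7, for Slc9a2 at 6.44 against 8.12 to 8.47 and for Nr1d2 at 47.6 against 39.3 to 40.05. Replicate 3 was apart for Ak4 at 126 RPKM against 152 to 157, and replicate 4 for Ugt1a2 at 629 against 738 to 758.

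By the interaction term (limma), 2 of 12943 genes (0.0155%) passed the threshold. Sh3bp5l had an interaction of 1.35 on the log2 scale (adjusted p = 0.0471), from a change of -0.05 in wild type and 1.30 in the knockout. Gm5096 had an interaction of 4.99. It averaged 3.339 RPKM in wild-type water and is listed at 0 in every wild-type bicarbonate and knockout library, so no fold is given. It passed the filter on low values through the wild-type water libraries alone, so nothing is read from its interaction.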

How the results depend on the processing

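The number of genes past the threshold in wild type, 18, was 34 with quantile normalization (13 higher and 21 lower, against 5 and 13), 5 after correction for length and GC content and 5 when the fit held only the groups compared. It ranged from 2 to 82 over the fits that left out 1 library each, and the 82 included all 18. With the replicate number as a block it was 2, but same-numbered animals did not deviate together (r from -0.0404 to 0.0347), so the numbers do not pair them. The other settings gave 12 to 18. Scalings moved the median of all genes by under 0.01. The cause of these differences was not tested, beyond the fewer samples in some fits. The interaction count of 2 was 1 with a pseudocount of 1, 0 with the stricter filter (limma; 1004 at an unadjusted p under 0.05), 4 without trend or robust fitting, 1 with array weights, 4 after correction for length and GC content and 1 to 5 with 1 library left out. The knockout count of 3 stayed between 2 and 4.

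Signs turned for 9 named genes with changes near their error, all uncalled. After correction for length and GC content Slc4a4 was at 0.057 and Scnn1a at -0.0623. Umod was at 0.0046 with quantile normalization and 0.0204 with array weights, Scnn1a at -0.0841 with array weights, and Arntl at 0.1332 with a pseudocount of 1 and 0.2561 with array weights. With 1 library left out, the values ran from -0.1383 to 0.0574 for Rhcg, -0.094 to 0.0438 for Slc4a4, -0.1636 to 0.047 for Slc12a1, -0.0555 to 0.0525 for Umod, -0.0365 to 0.0304 for Slc12a3, -0.122 to 0.0998 for Scnn1a, -0.2142 to 0.8058 for Cyp24a1, -0.9227 to 0.8658 for Arntl and -0.5772 to 0.0611 for Fos. Unknown depth limits what can be said of genes near 0.5 RPKM.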

Other observations

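Adipose tissue markers, which belong to no tubule cell and were not called between the groups, varied widely between libraries within each group. Their summed level over 5 genes was 692, 105, 158 and 221 RPKM in wild-type water replicates 1 to 4 and 416, 107, 527 and 284 RPKM in wild-type bicarbonate. Ucp1, the uncoupling protein of brown fat, chosen after its values were seen, read 81.8 RPKM in water replicate 1 and 3.83 to 6.63 RPKM in the other 3, and 26.1, 0.232, 35.3 and 12.1 RPKM in bicarbonate. The low libraries for these markers were replicate 2 of both groups.

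Gatm, the first enzyme of creatine synthesis, also chosen after its values were seen, read 715 and 711 RPKM in wild-type water replicates 1 and 2 but 308 and 306 RPKM in replicates 3 and 4, with 256 to 372 RPKM in bicarbonate and 265 to 351 RPKM in the 8 knockout libraries. These are the water replicates in which Cyp4a14, a fatty acid hydroxylase, was low, at 289 and 275 RPKM against 1127 and 1313 RPKM in replicates 3 and 4. Slc25a22, a mitochondrial glutamate carrier, ran from 6.61 to 55.7 RPKM in water and from 9.17 to 148 RPKM in bicarbonate. No test was made of these patterns.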
